A study of Mus musculus with 2 samples.

Results

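Candidate enhancers around 43 axon guidance genes were examined in a map of p300 binding from the dorsal cerebral wall of Swiss Webster mouse embryos at embryonic day 14.5. The genes are ligands and receptors of 9 role groups (semaphorins, plexins, neuropilins, Slits, Robos, Eph receptors, ephrins, netrin with Dcc and the Unc5 receptors, and the adhesion molecule Cntn2), and they stand against 22367 protein-coding genes in all. A p300 peak was assigned to a gene if its midpoint lay inside the gene body or within 250 kb of the transcription start site, taken from the transcript that codes for the longest protein. By this rule 147 of the 6629 deposited peaks (2.22%) belonged to at least 1 guidance gene. The labels name no transgene or treatment other than fixation. The tissue, with the hem, hippocampus and choroid plexus cut away, gave 1 p300 chromatin immunoprecipitation and 1 input library, with no replicate, and the number of embryos pooled is not given in the sources used here. Each p-value below therefore compares counts of peaks with placement by length and says nothing about the spread between animals. In tissue of mixed cell types, occupancy in few cells and weak occupancy in many cannot be told apart, and the peak list holds no expression against which the labelled tissue could be checked.

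Growing axons and migrating neurons steer by extracellular cues. Slits repel through Robo receptors, semaphorins signal through plexins with or without a neuropilin, netrin attracts through Dcc and repels through Unc5 receptors, and ephrins signal through Eph receptor kinases on contact. In the developing neocortex these systems guide callosal, corticofugal and thalamocortical axons and the migration of newborn neurons. p300 is an acetyltransferase that transcription factors recruit to chromatin, and its binding away from start sites marks candidate enhancers.

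The sequences below show what such a candidate looks like at Ephb2 and at the 5 genes with more peaks than their window length gives. Ephb2 was chosen after its values were seen, as the gene just outside that limit whose widest peak's middle 200 bases hold most matches. Each line gives the middle 200 bases of the widest peak, plus strand of the mm9 assembly. Capitals mark matches, on either strand, to CATCTG or CAGCTG (E-box cores read by basic helix-loop-helix factors), TAATTA (a homeodomain core), AACAAT (a Sox core) or the Nfi dimer (TGGC and GCCA separated by 5 bases). No one of these motifs contains another.
Epha3, widest of its 11 peaks, chr16:64068715-64068914: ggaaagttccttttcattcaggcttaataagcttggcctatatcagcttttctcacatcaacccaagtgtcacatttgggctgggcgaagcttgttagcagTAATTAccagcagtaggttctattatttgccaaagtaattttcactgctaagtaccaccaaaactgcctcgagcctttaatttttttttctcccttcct
Robo2, widest of its 12 peaks, chr16:74375519-74375718: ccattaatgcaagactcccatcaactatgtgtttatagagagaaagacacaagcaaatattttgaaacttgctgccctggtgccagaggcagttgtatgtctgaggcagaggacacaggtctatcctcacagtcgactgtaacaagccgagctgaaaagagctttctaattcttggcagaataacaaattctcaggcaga
Robo1, widest of its 10 peaks, chr16:72511040-72511239: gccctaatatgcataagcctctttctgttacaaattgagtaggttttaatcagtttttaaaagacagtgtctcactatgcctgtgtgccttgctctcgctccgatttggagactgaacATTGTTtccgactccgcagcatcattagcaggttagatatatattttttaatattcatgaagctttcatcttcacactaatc
Slit1, widest of its 7 peaks, chr19:41812867-41813066: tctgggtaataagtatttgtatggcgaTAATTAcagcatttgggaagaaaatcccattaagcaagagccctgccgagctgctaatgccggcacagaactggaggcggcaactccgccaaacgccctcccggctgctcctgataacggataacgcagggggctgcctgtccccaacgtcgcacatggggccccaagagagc
Cntn2, widest of its 8 peaks, chr1:134454758-134454957: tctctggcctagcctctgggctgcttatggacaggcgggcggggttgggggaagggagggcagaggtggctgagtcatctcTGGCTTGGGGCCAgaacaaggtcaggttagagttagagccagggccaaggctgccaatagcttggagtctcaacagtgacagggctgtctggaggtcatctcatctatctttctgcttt
Ephb2, widest of its 6 peaks, chr4:136329111-136329310: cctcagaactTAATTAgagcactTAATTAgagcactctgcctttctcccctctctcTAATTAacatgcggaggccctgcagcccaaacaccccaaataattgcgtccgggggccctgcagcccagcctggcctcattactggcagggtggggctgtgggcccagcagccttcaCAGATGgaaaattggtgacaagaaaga

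The Ephb2 stretch holds 3 matches to TAATTA and 1 to CATCTG, written as CAGATG on the plus strand. The Cntn2 stretch holds an Nfi dimer, and the Robo2 stretch holds none of the 5 motifs.

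Of the 43 guidance genes, 5 carried more p300 peaks than the assembled length of their window gives (11.6%; exact binomial test, one-sided, at a p under 0.05 after Benjamini-Hochberg adjustment over all protein-coding genes). The share called among all protein-coding genes was 2.09%. The called genes were the Eph receptor Epha3, the Slit receptors Robo2 and Robo1, the Slit ligand Slit1 and Cntn2 (also TAG-1, an adhesion molecule of corticofugal axons). Epha3 had 11 peaks where 1.48 were expected, 7.44-fold (adjusted exact p = 0.00015). Robo2 had 12 against 1.99 (6.03-fold, adjusted exact p = 0.00022) and Robo1 had 10 against 1.64 (6.10-fold, adjusted exact p = 0.0010). Cntn2 had 8 against 1.30 (6.18-fold, adjusted exact p = 0.0048) and Slit1 had 7 against 1.30 (5.40-fold, adjusted exact p = 0.019).

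These calls rest on an expectation in which peaks fall independently. Counts varied between genes more than that, and a negative binomial test with the dispersion of all protein-coding windows (1.63) called 0 of 43 guidance genes and 0 of 22367 genes at an adjusted p under 0.05. At an unadjusted p under 0.05 it still held 9 guidance genes and 3.11% of all genes, with 0.0089 for Epha3, 0.017 for Robo2, 0.018 for Robo1, 0.020 for Cntn2 and 0.030 for Slit1. The binomial test held 16 guidance genes (37.2%) and 8.33% of all genes at that unadjusted level.

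Most guidance genes, called or not, had peaks. The median guidance gene had 2 peaks and the median protein-coding gene 0, and 7 of 43 had none. Observed peaks exceeded the expectation at 29 of 43 guidance genes (67.4%) and at 25.7% of all protein-coding genes. Over the joined windows of the 43 genes, 24.1 Mb of assembled sequence, 147 peaks stood against 62.4 expected (2.36-fold; 95% exact interval 1.99 to 2.76, counting error only). That interval takes peaks as independent, although counts varied more than that, and it is no test of the list. Without the 5 called genes the ratio was 1.81 (99 peaks against 54.7), and over the joined windows of all protein-coding genes it was 1.04.

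**Figure D1:**
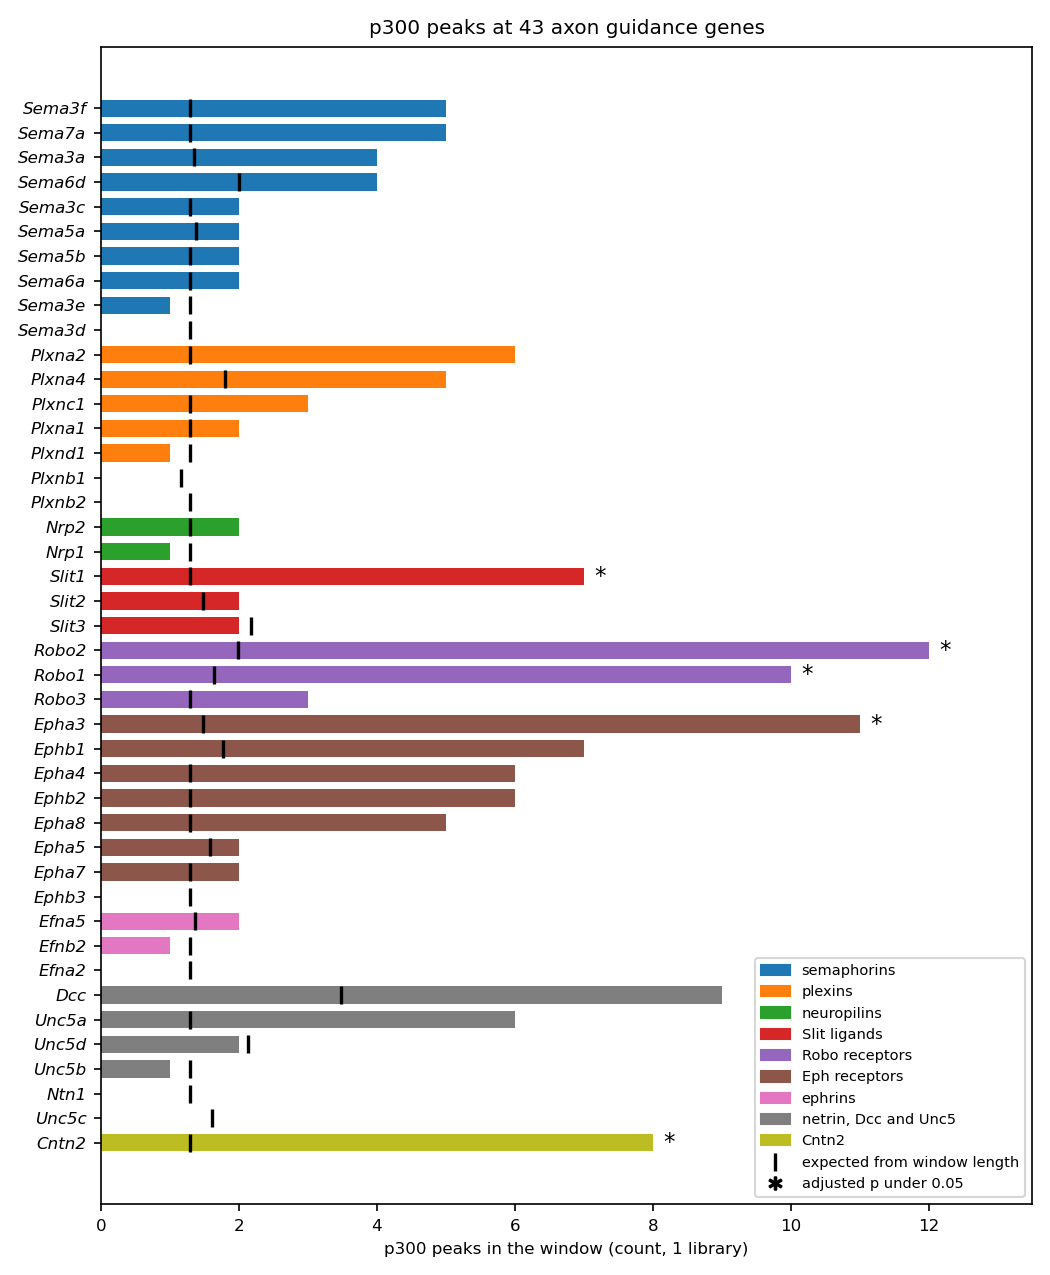
Bars give the number of p300 peaks in the window of each of the 43 guidance genes, coloured by role group, and black ticks the number expected from the assembled length of the window. Asterisks mark the 5 genes with an adjusted p under 0.05, which have 7 to 12 peaks against 1.30 to 1.99 expected.

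**Figure D2:**
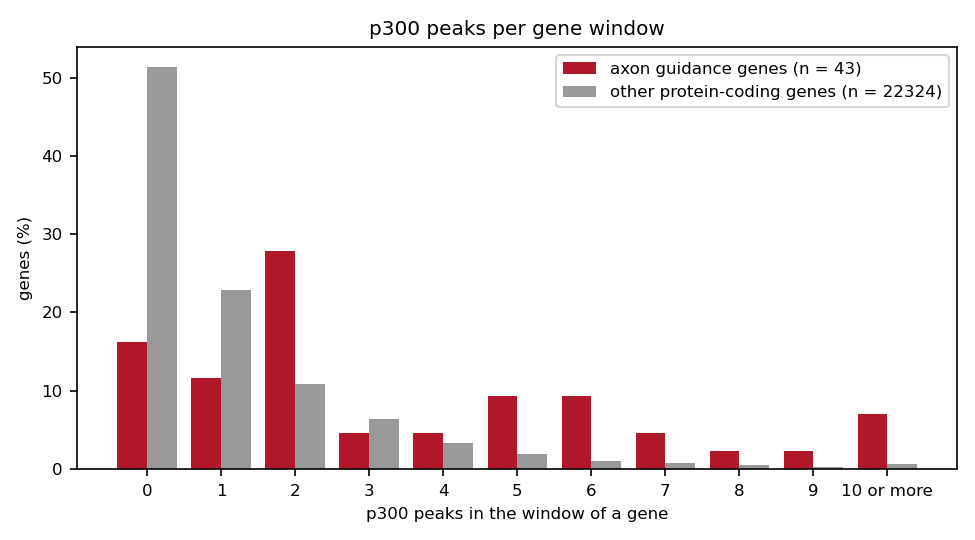
Bars give the percentage of the 43 guidance genes (red) and of the 22324 other protein-coding genes (grey) with each number of p300 peaks in the window. No peak was found for 16.3% of guidance genes and 51.3% of the others.

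Guidance genes are long, so they were also set beside genes of like span. They also stand apart from their neighbours, which neither comparison below matched. The median guidance gene was 154 kb long with 1 other protein-coding start site in its window, whereas the median other protein-coding gene was 15.4 kb long with 8. Against protein-coding genes whose window length was within 20% of its own (57 to 22077 genes), 34 guidance genes had more peaks than the median and 9 as many. That median was 0 for 35 of the 43, whose set held nearly all protein-coding genes, so those 35 could not fall below it and the comparison says little about gene length. Against genes of like gene length, a comparison added after the data were seen (50 to 2367 genes), 29 had more, 9 as many and 5 fewer. By gene length the called genes also ranked high, but this ranks the same window counts that gave the calls and is no separate support for them. As many peaks or more were found for 0.606% of the 330 genes of a length like Epha3, 0.602% of the 166 like Robo2, 2.24% of the 268 like Robo1, 2.32% of the 819 like Slit1 and 1.13% of the 2130 like Cntn2.

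The Robo receptors had the highest ratio of any role group of more than 1 gene, with 25 peaks against 4.93 expected over their joined windows (5.07-fold). Robo1 and Robo2 lie tail to tail on mouse chromosome 16, where Epha3 also lies. Robo2 lies on the minus strand at chr16:73892551-74412070, and 10 of its 12 peaks were inside the gene. Of these, 8 lay in intron 2, which is 306 kb long, and 2 in intron 1. The pair in intron 1 sat 35.6 and 37.4 kb from the start site and included the widest Robo2 peak printed above. The other 2 were 53.5 and 187 kb upstream. All 12 had the Robo2 start as their nearest protein-coding start.

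Robo1 (chr16:72663394-73046340, plus strand) had 6 peaks inside the gene, 4 of them in the 162 kb intron 2, and 4 from 77.9 to 162 kb upstream. The window held no other protein-coding start site, and all 10 peaks were nearest to Robo1. Counting the gene body alone gave 6 peaks against 0.992 expected, which no longer passed (adjusted exact p = 0.17). Robo3, which acts in commissural axons of the hindbrain and spinal cord, had 3 peaks against 1.30 (adjusted exact p = 0.97). The 3 are also in the window of Robo4, its neighbour.

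Slit1 had the most peaks of the Slit ligands. All 7 of its peaks lay inside the gene (chr19:41674747-41818155, minus strand), 4 of them in intron 4 at 46.1 to 58.1 kb from the start, 2 in intron 1 at 5.19 and 8.76 kb and 1 in intron 25, nearer to the start of AI606181. The intron 4 group is compact, with 3 peaks whose midpoints fell within 53.5 to 58.1 kb. When peaks less than 5 kb apart were joined, Slit1 kept 4 and was not called (adjusted exact p = 0.49), and it was not called with 500 kb around the start (adjusted exact p = 0.087). Slit2 had 2 peaks against 1.48 and Slit3 2 against 2.17, both with an adjusted p of 1. The difference between the paralogs was not tested.

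The 8 Eph receptors had 35 peaks over their joined windows against 10.3 expected (3.39-fold), and 7 of 8 had at least 2. Epha3 (chr16:63543364-63863984, minus strand), a receptor for A-type ephrins, had 8 peaks inside the gene and 3 upstream at 103, 169 and 205 kb. Intron 2 held 4 of the 8, intron 3 held 3 and intron 11 held 1. No other protein-coding start lay in its window. The Epha3 call was lost in 1 of the 12 alternative settings, the negative binomial test. Some of the 12 left its count, expectation and unadjusted p as reported.

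Below the limit stood Epha4, a repulsive receptor of corticospinal axons, and Ephb2, a receptor for B-type ephrins, each with 6 peaks against 1.30 (4.63-fold, adjusted exact p = 0.070). Epha4 carried 5 of its 6 peaks upstream of the start. All 6 had the Epha4 start as their nearest protein-coding start, whereas only 3 of the 6 Ephb2 peaks had that of Ephb2. Ephb1, which steers retinal and callosal axons, had 7 peaks against 1.77 (3.96-fold, adjusted exact p = 0.074), all of them inside the gene (chr9:101824458-102257023, minus strand), 4 in intron 1, 2 in intron 3 and 1 in intron 12. Of the 7, 6 had the Ephb1 start as their nearest. Epha8 had 5 peaks (3.86-fold, adjusted exact p = 0.21), but 4 of these are shared with Ephb2, whose start is 121 kb away, and none had Epha8 as its nearest start. Epha5 and Epha7, graded receptors of the cortical sheet, had 2 peaks each. Ephb3 had 0. The ligands of this family had few peaks: Efna5 (chr17:62953533-63230666, minus strand) had 2, Efnb2 had 1 and Efna2 had 0, together 3 against 3.96 expected (0.758-fold).

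**Figure D3:**
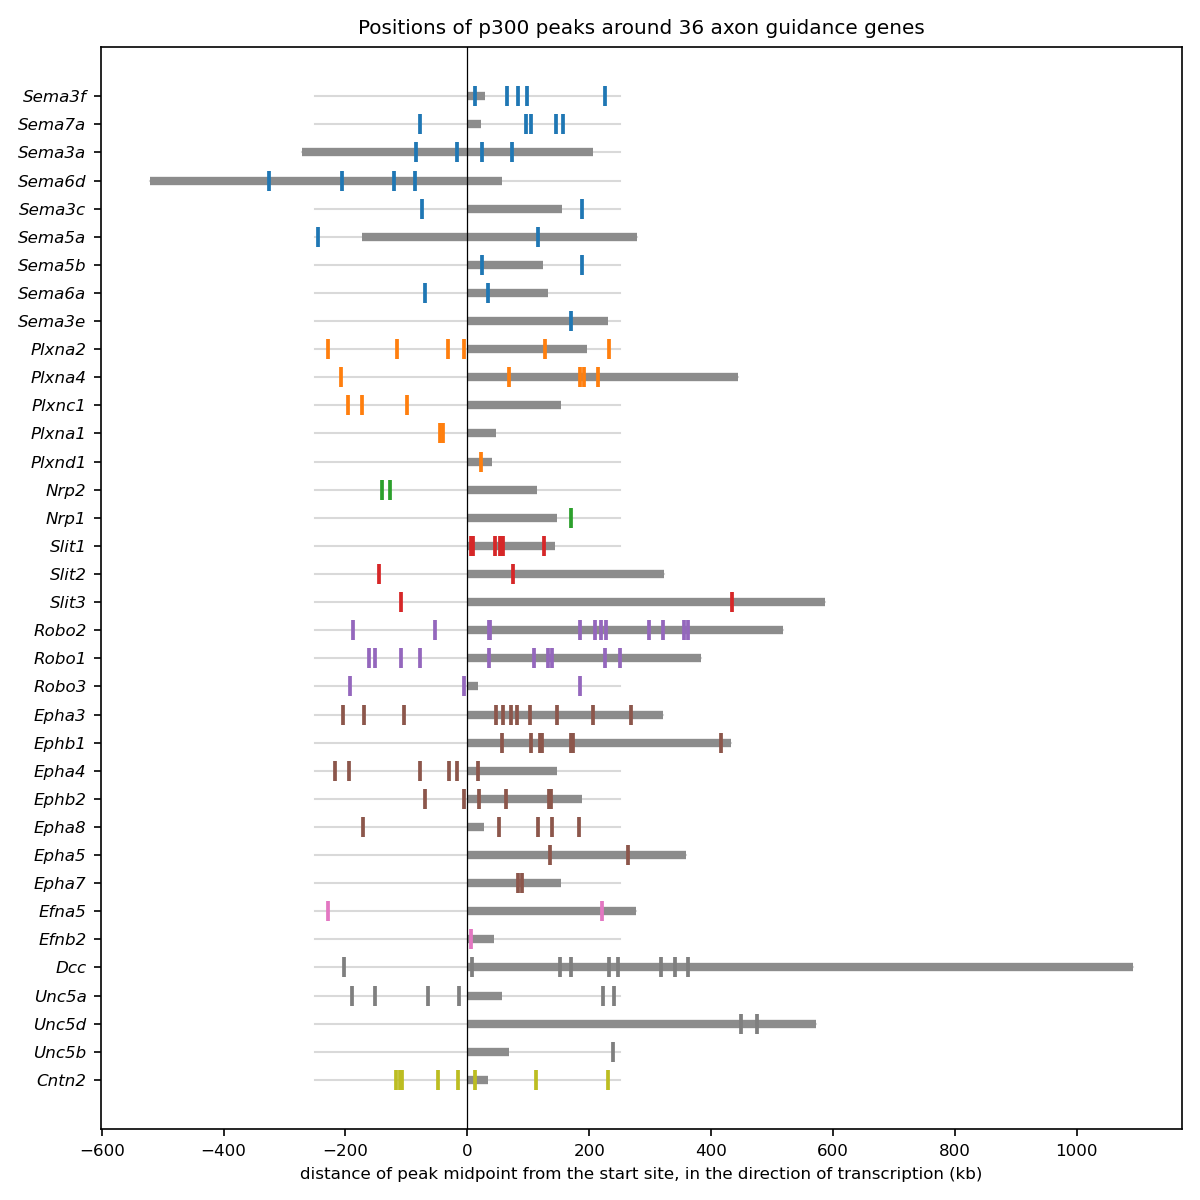
Coloured ticks give the distance in kb from the start site to the midpoint of each p300 peak, in the direction of transcription, for the 36 guidance genes with a peak; thick grey bars are gene bodies and thin lines the rest of the window. Peaks of Robo2, Epha3, Slit1, Ephb1 and Dcc lie mostly inside the gene, whereas those of Epha4, Unc5a and Cntn2 lie mostly outside it.

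Cntn2 (chr1:134406002-134439517, minus strand) is a compact gene of 33.5 kb and its 8 peaks were mostly outside it. The peak printed above lay 15.3 kb upstream and 1 was inside the gene. Of the 8, only 3 had Cntn2 as their nearest protein-coding start, 3 had that of the neighbouring adhesion gene Nfasc, 1 that of Dstyk and 1 that of Nuak2, and 4 lay inside Nfasc. With 100 kb around the start in place of 250 kb, Cntn2 kept 3 peaks and was not called (adjusted exact p = 0.45), nor was it with 500 kb (adjusted exact p = 0.087).

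No gene of the netrin system was called. Dcc (chr18:71418392-72510723, minus strand), the attractive netrin receptor, had 9 peaks in its 1342 kb window against 3.48 expected (2.59-fold, adjusted exact p = 0.21). All but 1 of the 9 lay in its 395 kb intron 1, and the remaining peak was 203 kb upstream. The repulsive netrin receptor Unc5a had 6 peaks against 1.30 (4.63-fold, adjusted exact p = 0.070), all outside the gene and 2 of them nearest to its own start. Unc5d had 2, Unc5b 1, and Unc5c and the ligand Ntn1 had 0.

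The 10 semaphorins had 27 peaks over their joined windows against 13.8 (1.96-fold) and none was called. Sema3f (chr9:107583833-107612806, minus strand) and Sema7a (chr9:57787920-57810671, plus strand), a secreted and a membrane-anchored ligand, had 5 peaks each (3.86-fold, adjusted exact p = 0.21). Only 1 of the 5 lay inside Sema3f, all 5 also fell among the 7 in the window of Sema3b, and none of those of Sema7a had its start as the nearest. Sema3a, a secreted repellent that also orients cortical dendrites, had 4 peaks against 1.35 (adjusted exact p = 0.58), and Sema6d had 4 against 1.997 (adjusted exact p = 0.97). All 8 of these were inside the gene. Sema3c, Sema5a, Sema5b and Sema6a had 2 peaks each, Sema3e had 1 and Sema3d 0.

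Of the semaphorin receptors, the 7 plexins had 17 against 9.44 (1.801-fold) and the neuropilins 3 against 2.59 (1.16-fold). Plxna2 (chr1:196446023-196643063, plus strand), a receptor for class 3 and class 6 semaphorins, had 6 (4.63-fold, adjusted exact p = 0.070), 4 of them upstream from 6.19 to 229 kb. Plxna4 had 5 against 1.797 (adjusted exact p = 0.52), 3 of them in intron 3. Plxnc1 had 3, Plxna1 2, Plxnd1 1, and Plxnb1 and Plxnb2 had 0. Nrp2 (chr1:62749859-62865269, plus strand) had 2 peaks, both inside the neighbouring gene Pard3b, and Nrp1 had 1.

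The 7 genes without a peak (Sema3d, Plxnb1, Plxnb2, Ephb3, Efna2, Ntn1 and Unc5c) had expectations of 1.17 to 1.604, at which placement by length leaves a window empty with a probability of 0.20 to 0.31. A shortfall was therefore not detectable at single genes. Taken by side of the signal, the 17 ligands had 41 peaks against 24.0 expected (1.71-fold) and the 25 receptors 98 against 37.1 (2.64-fold), with Cntn2 in neither set. The difference was not tested.

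Where the guidance peaks lie could be compared with the other 6482 peaks. Among the 147, 70.1% lay inside a protein-coding gene and among the others 42.1%, but position inside a guidance gene is part of how the 147 were assigned, so this is a description and not a difference tested. Inside a guidance gene lay 81 of 147 (55.1%), and for 112 (76.2%) the nearest protein-coding start was that of a guidance gene. In introns of the start-site transcript lay 75 peaks of 25 genes, 23 in intron 1 and 20 in intron 2. Sema3a and Sema6d hold the other 6, ahead of the start site used and inside the annotated gene. Widths were alike, with a median of 1044 bp against 1017 bp.

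GC content differed between guidance genes. Among the 15 genes with at least 5 peaks, Dcc, Epha3, Robo2 and Robo1 had median peak GC contents of 37.3%, 37.8%, 38.4% and 38.6%. These lie below the middle 50% of all peaks (40.6 to 50%). Peaks of Sema3f, Slit1, Unc5a, Epha8 and Ephb2 had medians of 54.0 to 57.6%, above it. The medians of Cntn2 (51.7%) and Sema7a (50.9%) were also above it. No peak of Slit1 (50.9 to 55.9%) overlapped those of its receptors Robo1 (34.6 to 43.1%) and Robo2 (33.0 to 41.5%) in GC content. The windows themselves followed the same order, with 46.4% for Slit1, 39.0% for Robo1 and 36.8% for Robo2. At 13 of the 15 genes with at least 5 peaks the median peak was richer in GC than the window, by up to 8.81 percentage points at Slit1, whereas the difference was -0.40 points at Robo1 and -0.0525 at Dcc.

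**Figure D4:**
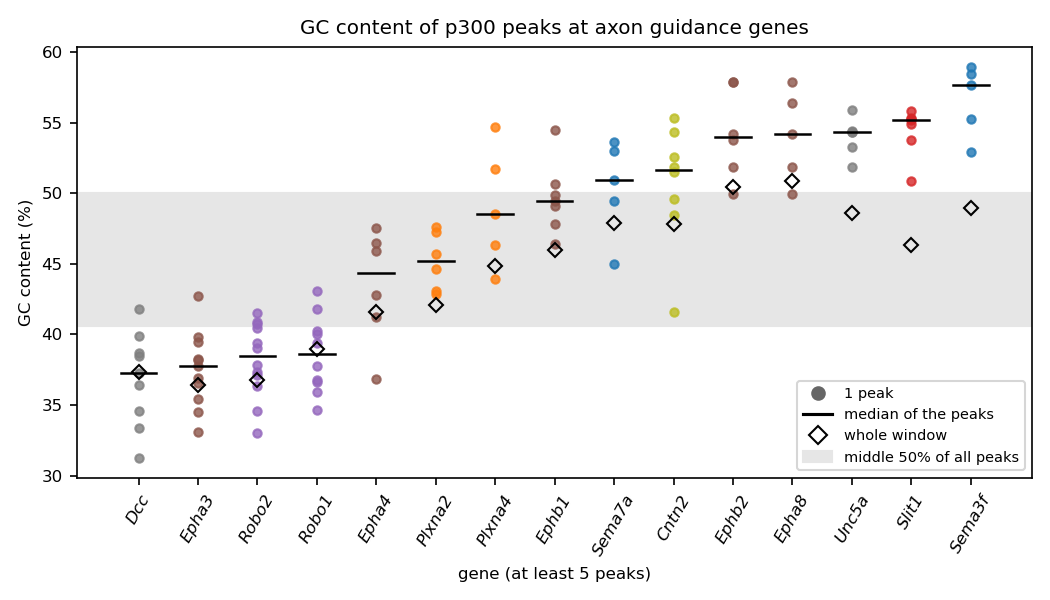
Points give the GC content in % of each p300 peak at the 15 guidance genes with at least 5 peaks, black lines the median of a gene, open diamonds the whole window and the grey band the middle 50% of all peaks. The medians of Dcc, Epha3, Robo2 and Robo1 lie below the band and those of Sema3f, Slit1, Unc5a, Epha8, Ephb2, Cntn2 and Sema7a above it.

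Motif content of guidance peaks was close to that of all peaks. In the middle 300 bases CATCTG was found in 49.0% of the 147 (95% exact interval 40.7 to 57.3) and in 45.7% of all 6629 peaks, against 22.7% of windows of that length 10 kb downstream of all peaks. CAGCTG was found in 36.7%, 30.9% and 12.2%, and TAATTA in 27.2%, 23.5% and 9.29%, in the same order. AACAAT had 15.0%, 17.1% and 18.4%. The Nfi dimer was in 6 guidance peaks (4.08%), 1 each at Plxna2, Nrp1, Robo1, Epha4, Epha5 and Cntn2, and in 3.42% of all peaks and 0.604% of the downstream windows. Each interval of the guidance peaks holds the value of all peaks.

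Single genes varied in these motifs, again searched only in the middle 300 bases of each peak. CATCTG was in 7 of 10 Robo1 peaks and 6 of 7 Slit1 peaks but in 3 of 12 Robo2 peaks, and TAATTA was in 6 of 9 Dcc peaks and 5 of 11 Epha3 peaks. Of the Robo2 peaks 5 held none of the 5 motifs in that stretch, and of the Robo1 peaks 0. The rest of each peak was not searched. These counts are too small for a comparison between genes and were not tested.

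Further genes of the pathway were counted from 2 lists. Of 37 further guidance genes 5 were called, against 2.09% of all protein-coding genes, and the list had 1.803-fold the expected peaks over its joined windows (87 against 48.2). Per gene the median ratio was 0.963, and 10 of the 37 genes had no peak. The list holds other members of the role groups' families and also Rgma, Rgmb, Neo1, Dscam, Draxin and the Flrt genes. Its counts are not all apart from those of the 43 genes. Sema3b shares 5 of its 7 peaks with Sema3f, and all 3 peaks of Robo4 are also those of Robo3. With 100 kb around the start the 5 calls fell to 1 (Flrt1), as they did in a regulatory domain ending at neighbouring genes or 1 Mb away. With the gene body alone or the negative binomial test they fell to 0. The called genes were Ntng2, a membrane-anchored netrin relative, with 9 peaks (adjusted exact p = 0.0010), Flrt1, which binds Unc5 and Robo proteins, with 9 (adjusted exact p = 0.0010), Rgma, a ligand of neogenin, with 8 (adjusted exact p = 0.0048), and the semaphorins Sema3b and Sema4d with 7 each (adjusted exact p = 0.019). Of 22 intracellular effectors 0 were called by the binomial test and 3 had an unadjusted p under 0.05, beside 2.09% and 8.33% of all protein-coding genes. These 3 were the kinase Fyn with 6 peaks (4.63-fold, adjusted exact p = 0.070), the adaptor Nck1 with 4 (3.09-fold, adjusted exact p = 0.52) and the Rac regulator Chn2 with 4 (3.01-fold, adjusted exact p = 0.55). The effectors had 39 peaks over joined windows against 29.3 (1.33-fold).

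**Figure D5:**
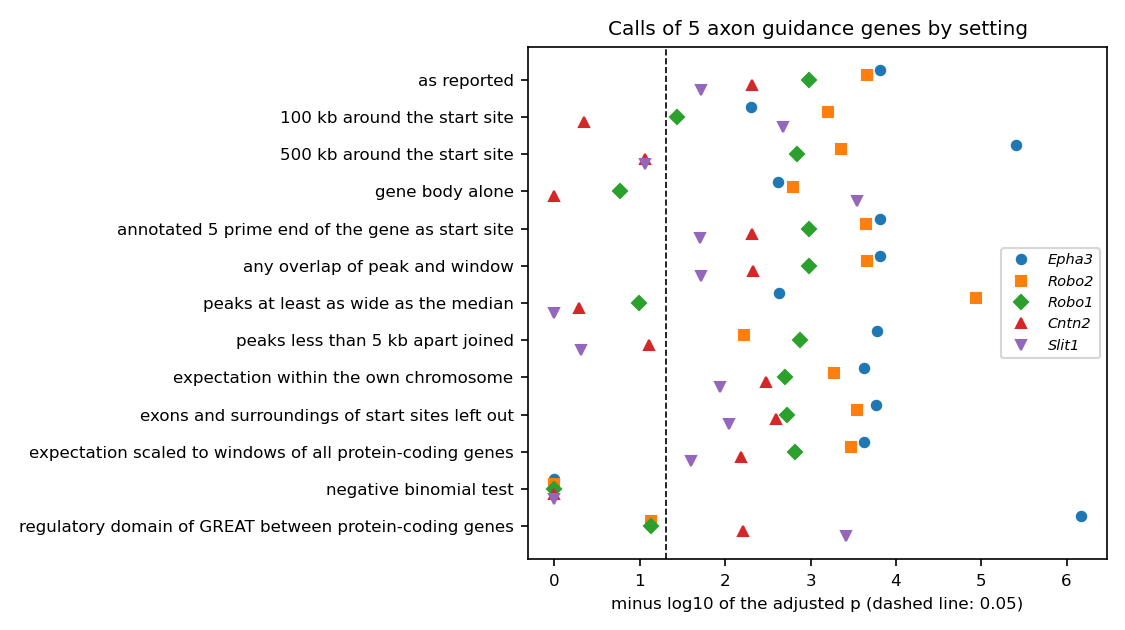
Points give minus log10 of the adjusted p of the 5 called genes as reported and under each of 12 alternative settings, with the dashed line at 0.05. Epha3 stays right of the line except under the negative binomial test, where all 5 genes sit at 0.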

How the data were processed

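Chromatin from dissected embryonic tissue gave 1 p300 ChIP and 1 input library. The authors aligned 36 bp reads to mm9 with ELAND, kept unique alignments with at most 2 mismatches, called peaks over the input with MACS (version 1.4 per the submitters' processing notes; reads shifted by 100 bp) and dropped those touching exons, closer than 2.5 kb to a start site or of doubtful unique mapping. The removal lowers counts next to start sites. The deposited file gives positions only, as start and end of each peak on mm9, with no score, signal or read count. The depth behind a peak is therefore unknown, and the input library was not analysed here.

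Windows were built on GENCODE vM1 genes (37273, of which 22367 protein-coding) and the NCBIM37 sequence (2.56 Gb assembled), the same assembly as mm9, from which printed sequences were read. Expected counts were a window's share of assembled bases times 6629. A one-sided exact binomial test was adjusted by Benjamini-Hochberg over all protein-coding genes. Intervals, where given, are exact Clopper-Pearson 95% intervals, and most shares are printed without one. The members and lists were chosen with earlier results of these data known. All members are accounted for by role group, with positions for the called members and the member with most peaks in each group. Other genes whose start is nearer to a peak are named at some members only. A peak without a named neighbour may therefore be nearest to another gene. The further guidance genes and effectors named were those called or, where none was, those with an unadjusted p under 0.05. Of the alternatives, 12 changed the windows, peaks, expectation or test, and the comparison by gene length was added after the data were seen. Window counts were compared with a direct count, and the binomial calls were run on simulated peaks, placed uniformly or planted in the windows of chosen genes. Python 3.11.15, numpy 2.4.6, scipy 1.17.1 and matplotlib 3.10.9 were used.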

Additional observations from a re-analysis of the deposited data

How the results depend on the processing

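No paired analysis was possible because there was 1 library per group. The 5 calls became 3 with the gene body alone, 2 when only peaks of median width or more were counted, 3 with peaks under 5 kb apart joined and 0 with the negative binomial test, which called 0 genes in all. Epha3 was called in 11 of 12 alternatives, Robo2 in 10, Robo1 and Slit1 in 8 and Cntn2 in 6. These tallies include settings that hardly moved the values. Counting any overlap of peak and window left the count, expectation and unadjusted p of all 5 genes as reported. Taking the annotated 5 prime end as start site changed the expectation of Robo2 alone, from 1.992 to 1.994. The regulatory domain of GREAT ends at neighbouring genes or, where these are further off, 1 Mb from the start site. In it Robo1 and Robo2 had 14 peaks each against 5.18 expected (adjusted exact p = 0.074). Their expectations in the windows used above were 1.64 and 1.99. With 500 kb Slit1 and Cntn2 were no longer called (adjusted exact p = 0.087 for each) and Plxna2, Epha4, Epha5 and Ephb1 were, for 7 in all. Other gains were Plxna2 in the GREAT domain, Ephb2 with 100 kb, and Ephb2 and Unc5a with exons and start-site surroundings left out. The ratio over joined windows was 1.94 with 500 kb and 3.15 with the gene body alone. Of the further guidance genes 1 (Flrt1) was called with 100 kb and in the GREAT domain, and 0 with the gene body alone and the negative binomial test. Of the effectors 1 was called with 500 kb (Dpysl2), beside 4.09% of all protein-coding genes. With the expectation of the own chromosome 1 was called (Fyn), beside 2.05%. Genome-wide calls, 468 as reported (2.09%), were 914 (4.09%) with 500 kb, 198 (0.885%) with 100 kb and 49 (0.219%) with the gene body alone. They were 339 (1.52%) with peaks of median width or more, 256 (1.14%) with joined peaks and 252 (1.13%) in the GREAT domain. With exons and start-site surroundings left out they were 673 (3.01%), with the expectation of the own chromosome 459 (2.05%) and with the negative binomial test 0. The single library, the lack of scores and the removal of peaks near start sites limit these counts, and the causes of the changes were not tested.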
